A study of Mus musculus with 10 samples.

Results

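The interferon-induced GTPases described here were 10 genes of 26360 listed in an RNA sequencing data set of the posterior wall of the mouse eye. They were picked by symbol and comprised Tgtp1, Tgtp2, Irgm1, Irgm2, Igtp, Iigp1, Ifi47, Gbp2, Gbp3 and Gbp7. The symbols had been proposed because the fellow eyes of 1 animal resembled each other in these genes while animals differed, so the comparison between animals is given as a description, without a test. All 10 genes passed the filter on low values, as did 15414 genes in all.

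The tissue label was RPE/choroid/sclera, that is, the pigmented epithelium under the retina (RPE), the vascular choroid and the collagenous outer coat. It was taken from 5 wild-type C57BL/6J mice at postnatal day 34, with 1 library from the right eye and 1 from the left eye of each animal. One eye of each mouse had carried a goggle with a -20 D lens since postnatal day 24, for 10 days. A negative lens shifts the image behind the photoreceptors and makes growing eyes myopic, and the fellow eye without a lens was the study's control. The labels named the side of each eye but not the side of the lens, so libraries were compared as right eye (n = 5) and left eye (n = 5), and a difference between sides has no treatment meaning. Animals are called by the numbers 61, 64, 65, 66 and 68 of their titles. The extraction protocol speaks of retinae, although the tissue label does not.

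Interferons are secreted signals of infection that switch on a common set of genes. Type I interferons act through a complex of STAT and IRF factors that binds an interferon-stimulated response element (ISRE), and interferon gamma acts through paired STAT proteins that bind a gamma-activated site (GAS). The GTPases of this set belong to 2 families that are known in mice for attacking the membrane around intracellular pathogens. Among the immunity-related GTPases (IRGs), Irgm1, Irgm2 and Igtp are regulators that sit on the cell's own membranes, while Tgtp1, Tgtp2, Iigp1 and Ifi47 are effectors that load onto pathogen vacuoles. Gbp2, Gbp3 and Gbp7 are guanylate-binding proteins (GBPs), larger GTPases that gather on such vacuoles and on bacteria. In the eye, interferon signalling is best known from uveitis and from the resident immune cells of the choroid.

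The genes lay in a few clusters of the GRCm38 genome. Irgm1 (chr11:48861968-48871683), Tgtp1 (chr11:48985327-48994172), Tgtp2 (chr11:49057194-49064206) and Ifi47 (chr11:49076587-49096974) lay close together on chromosome 11. A second group on the same chromosome held Igtp (chr11:58199556-58207591) and Irgm2 (chr11:58199618-58222782). Gbp7 (chr3:142530342-142550149), Gbp3 (chr3:142560026-142573209) and Gbp2 (chr3:142620602-142638008) lay close together on chromosome 3. Promoter stretches with ISRE or GAS letters are shown for the members that had them. The part of these stretches in the differences between animals was not tested. They come from RefSeq (GRCm38.p6), read 5′ to 3′ on the strand of the gene, and capitals mark the motif letters. The stretches of Tgtp1 and Irgm2 lie inside the annotated gene spans, upstream of internal RefSeq starts and in no annotated exon. That of Irgm1 also lies inside its gene span, and that of Gbp2 crosses the start of its span.
Tgtp1 (chr11:48992295-48992354, minus strand): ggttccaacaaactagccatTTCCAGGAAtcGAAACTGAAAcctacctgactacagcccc
Tgtp2 (chr11:49064254-49064313, minus strand): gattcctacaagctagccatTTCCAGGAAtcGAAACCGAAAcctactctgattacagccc
Irgm2 (chr11:58214882-58214941, plus strand): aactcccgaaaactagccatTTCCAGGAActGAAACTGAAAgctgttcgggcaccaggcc
Igtp (chr11:58199491-58199550, plus strand): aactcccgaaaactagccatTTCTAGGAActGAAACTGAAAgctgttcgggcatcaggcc
Irgm1 (chr11:48871428-48871457, minus strand): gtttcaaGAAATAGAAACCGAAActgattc
Gbp7 (chr3:142530220-142530302, plus strand): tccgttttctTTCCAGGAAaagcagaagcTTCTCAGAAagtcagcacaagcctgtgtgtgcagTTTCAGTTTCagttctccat
Gbp3 (chr3:142559992-142560021, plus strand): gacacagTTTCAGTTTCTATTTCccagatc
Gbp2 (chr3:142620594-142620623, plus strand): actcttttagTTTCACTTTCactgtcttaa

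The ISRE core was searched as GAAANNGAAA and the GAS as TTCNNNGAA, both on either strand, in windows of 250 bases before to 50 bases after each RefSeq start. Windows were given for 9 of the 10 members, with 2 windows for Gbp3, and Iigp1 was the exception. The ISRE core was found in 8 of 9 members (88.9%), against 3.99% of all 27025 genes with a window and 3.44% of all 32851 windows. A GAS was found in 5 of 9 members (55.6%), against 9.55% of genes and 8.30% of windows. Both motifs occurred together in 5 of 9 members, in 0.540% of genes and in 0.454% of windows.

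The arrangement of the letters was shared by 4 of the IRG members. In Tgtp1, Tgtp2, Irgm2 and Igtp the GAS stood before the ISRE core with 2 bases between them. A GAS within 10 bases of an ISRE core was present in those 4 of 9 members, in 0.152% of genes and in 0.131% of windows. Igtp and Irgm2 also shared most of the surrounding bases. Gbp7 had 2 GAS matches, and the one nearer to its ISRE core was 25 bases from it. Irgm1 and Gbp3 each had 2 overlapping ISRE cores and no GAS, and Gbp2 had a single ISRE core. The window of Ifi47 held neither string of letters. Such matches describe letters, not binding. Longer stretches around the matches of Irgm1, Gbp2 and Gbp3 met annotated exons, so those printed were kept to 30 bases.

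All 10 GTPases were expressed at low to moderate levels in the posterior eye. Levels are given as counts scaled to the total of the library (CPM). Implied library totals were 66.8 to 94.0 M reads (M, mega; median 79.1 M), so that 3 reads correspond to 0.0319 to 0.0449 CPM, and the lowest value of any member was 2.14 CPM. Listed genes made up 42.7% to 47.1% of each CPM total. Per kb of annotated exon, mean levels were highest for the GBPs, at 5.15 CPM per kb for Gbp2, 4.48 for Gbp3 and 4.04 for Gbp7. The regulators followed at 3.63 CPM per kb for Irgm2, 3.56 for Igtp and 2.76 for Irgm1, and then the effectors at 2.56 for Tgtp2, 1.87 for Tgtp1, 1.64 for Ifi47 and 1.29 for Iigp1. In bulk tissue, fewer cells of a type and less RNA per cell cannot be told apart.

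Markers of the labelled tissue were present in every library. The 6 pigment epithelium markers together gave 4629 to 6415 CPM, and the 6 sclera fibroblast markers gave 5977 to 8725 CPM. Markers of neighbouring tissues varied much more between libraries, at 116 to 1681 CPM for 6 rod photoreceptor genes, 1715 to 8070 CPM for 6 skeletal muscle genes and 92.6 to 738 CPM for 5 surface epithelium genes. Among libraries, the highest rod sum came from the right eye of animal 68.

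The effector Tgtp1 had the widest fold between animal means of the 10 genes. In right eyes of animals 61, 64, 65, 66 and 68 it stood at 10.5, 5.24, 8.04, 3.60 and 2.70 CPM, against 10.6, 5.88, 8.09, 3.25 and 2.14 CPM in the left eyes of the same animals. Both eyes of each animal thus lay together, and no pair overlapped the next animal in the order 61, 65, 64, 66, 68. The mean of animal 61 was 4.35 times that of animal 68. Fellow eyes differed by a median of 0.13 in log2(CPM + 0.5), whereas eyes of different animals differed by a median of 0.94.

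Its neighbour Tgtp2 is a near copy and could take some of its reads. Tgtp2 stood at 14.97, 5.35, 11.3, 5.51 and 3.20 CPM in right eyes of animals 61, 64, 65, 66 and 68, against 10.9, 5.58, 11.04, 3.27 and 3.99 CPM in left eyes. All eyes of animals 61 and 65 lay above all others, while the ranges of animals 64, 66 and 68 overlapped in part. Of the distinct 50-base stretches of their transcripts, 79.4% of those of Tgtp1 were also in Tgtp2 and 85.8% of those of Tgtp2 were also in Tgtp1, so how far the 2 genes vary separately is uncertain. The gene span of the olfactory receptor gene Olfr56 covers Tgtp1 and Tgtp2 on the opposite strand and Ifi47 on the same strand, and Olfr56 itself had 0.628 to 1.58 CPM.

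Iigp1, on chromosome 18, an effector that in mice loads onto the vacuole of Toxoplasma, showed the third-widest spread. It stood at 13.5, 6.00, 10.2, 3.57 and 5.16 CPM in right eyes of animals 61, 64, 65, 66 and 68, against 10.2, 6.73, 9.60, 5.60 and 4.34 CPM in left eyes. Eyes of animals 61 and 65 again lay highest, and the 2 animals overlapped each other, as did animals 66 and 68. Ifi47, the remaining effector, was the least abundant of the 10 genes in CPM. It had 6.54, 3.10, 4.43, 3.25 and 2.76 CPM in right eyes and 4.51, 3.72, 5.45, 3.57 and 3.34 CPM in left eyes. Its fellow eyes resembled each other less closely, with a median difference of 0.24 in log2(CPM + 0.5) against 0.38 between animals.

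The regulators varied over a narrower range, with the same animals on top. Irgm2 stood at 18.2, 11.9, 16.3, 11.1 and 10.3 CPM in right eyes of animals 61, 64, 65, 66 and 68, against 17.0, 12.7, 14.8, 12.1 and 9.60 CPM in left eyes. Igtp stood at 9.38, 6.14, 9.26, 5.70 and 5.48 CPM in right eyes, against 9.31, 6.68, 8.80, 6.35 and 4.97 CPM in left eyes. In both genes the animals followed the order 61, 65, 64, 66, 68, and of the neighbours in that order the ranges of 64 and 66 overlapped. Igtp and Irgm2 share 162 exon bases, 8.01% of the exon length of Igtp and 4.39% of that of Irgm2, so some reads may belong to either.

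Irgm1 was less regular between fellow eyes. Its levels were 23.0, 12.8, 17.7, 15.3 and 11.6 CPM in right eyes and 18.9, 14.8, 16.5, 14.8 and 14.8 CPM in left eyes. Animals 61 and 65 were still above the rest in all 4 libraries, but animals 64 and 68 overlapped, and animal 66 lay only just above them.

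Gbp2 and Gbp7 varied least between animals, and Gbp3 departed from the pattern. Gbp2, which in mice is recruited to pathogen vacuoles, had 14.9, 11.6, 15.7, 10.7 and 10.5 CPM in right eyes of animals 61, 64, 65, 66 and 68, against 15.3, 12.9, 14.7, 12.1 and 11.3 CPM in left eyes. Gbp7 had 26.6, 20.2, 25.9, 20.9 and 18.6 CPM in right eyes, against 24.7, 19.5, 25.5, 23.6 and 21.5 CPM in left eyes. In both genes animals 61 and 65 overlapped each other and lay above the rest.

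Gbp3 had 16.5, 10.98, 19.2, 13.8 and 14.1 CPM in right eyes, against 15.5, 11.1, 16.0, 12.3 and 16.6 CPM in left eyes. The left eye of animal 68 exceeded both eyes of 61, so the animals did not separate, and animal 64 rather than 68 was lowest. Without animal 64, the ratio of the fellow-eye to the different-animal difference of Gbp3 was 0.909, compared with 0.501 with all animals. Highest over lowest animal mean was 1.30 for Gbp7, 1.40 for Gbp2 and 1.59 for Gbp3.

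**Figure D1:**
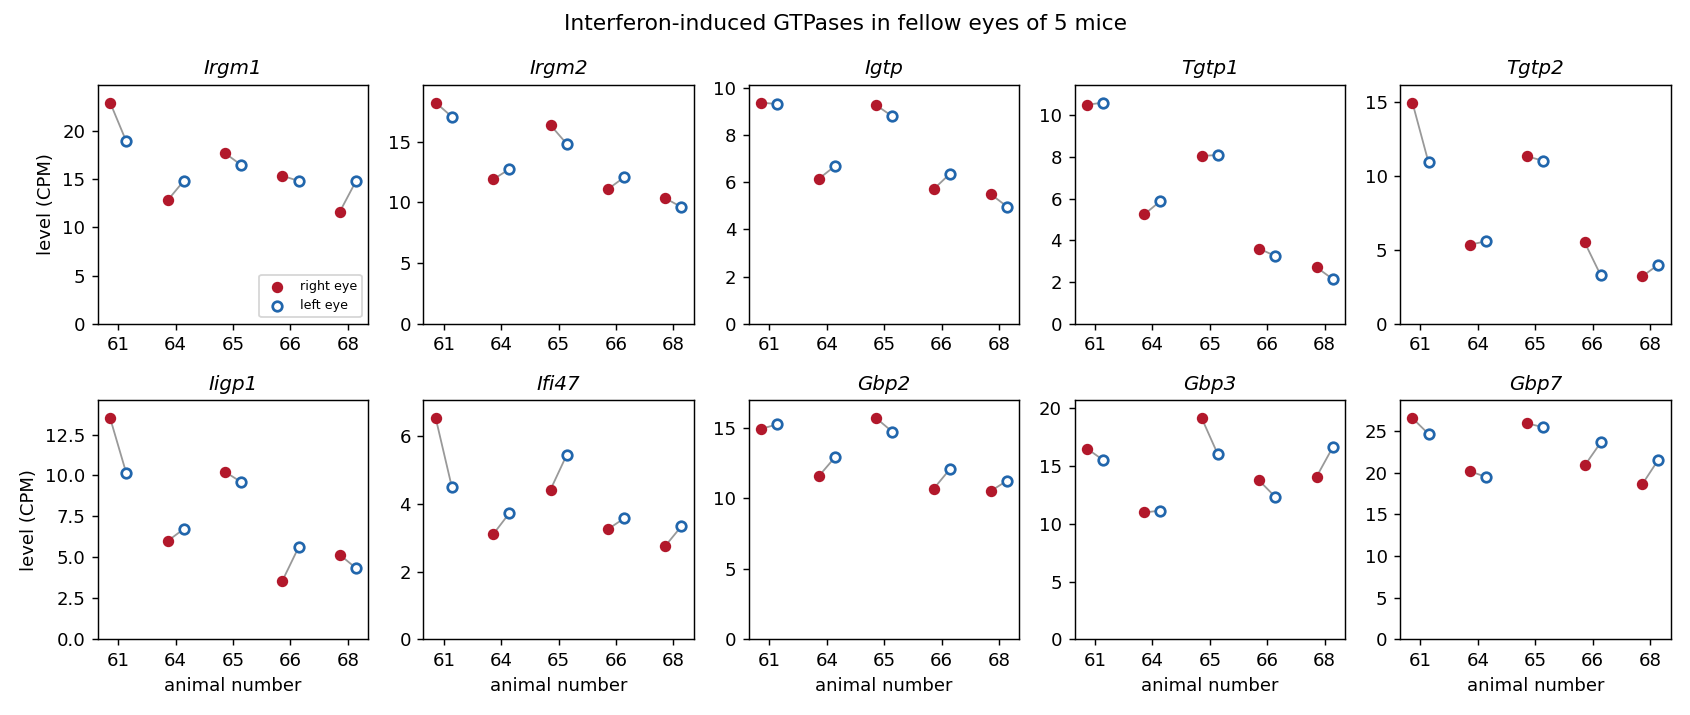
Level in CPM (y axis, from 0) of each of the 10 GTPases by animal number (x axis), with filled points for right eyes, open points for left eyes and a line joining fellow eyes. Animals 61 and 65 are highest in each panel by animal mean, and in Gbp3 the left eye of animal 68, at 16.6 CPM, reaches above animal 61.

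Over the 10 genes, fellow eyes differed by a median of 0.14 in log2(CPM + 0.5) and eyes of different animals by 0.39. Over all 15414 genes tested these medians were 0.14 and 0.15. The ratio of the fellow-eye to the different-animal difference had a median of 0.321 over the members and 0.923 over all genes. By member it was 0.137 for Tgtp1, 0.247 for Igtp, 0.253 for Irgm2, 0.294 for Tgtp2, 0.312 for Iigp1, 0.329 for Gbp2, 0.442 for Gbp7, 0.501 for Gbp3, 0.629 for Ifi47 and 0.642 for Irgm1. It was under 0.5 for 7 of 10 members and for 15.2% of all genes, and these ratios chose the members, so nothing is read from that count. With any 1 animal or library left out, the median over the members stayed between 0.273 and 0.443. Single genes moved more, and Tgtp1 was at 0.0547 without animal 64, Tgtp2 at 0.173 without animal 66, and Gbp7 at 0.677 without animal 65 and 0.266 without animal 66. Leaving out 1 library of animals 64, 66 or 68 put Tgtp1 between 0.0672 and 0.0883, 1 library of animals 61 or 66 put Tgtp2 between 0.173 and 0.182, and the left eye of animal 66 or 68 put Gbp7 at 0.283 or 0.278. Gbp2 was at 0.149 and Igtp at 0.101 with listed genes scaled to 1 total, and under each of the 3 scalings tried besides the main one they were at most 0.213 and 0.150.

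**Figure D2:**
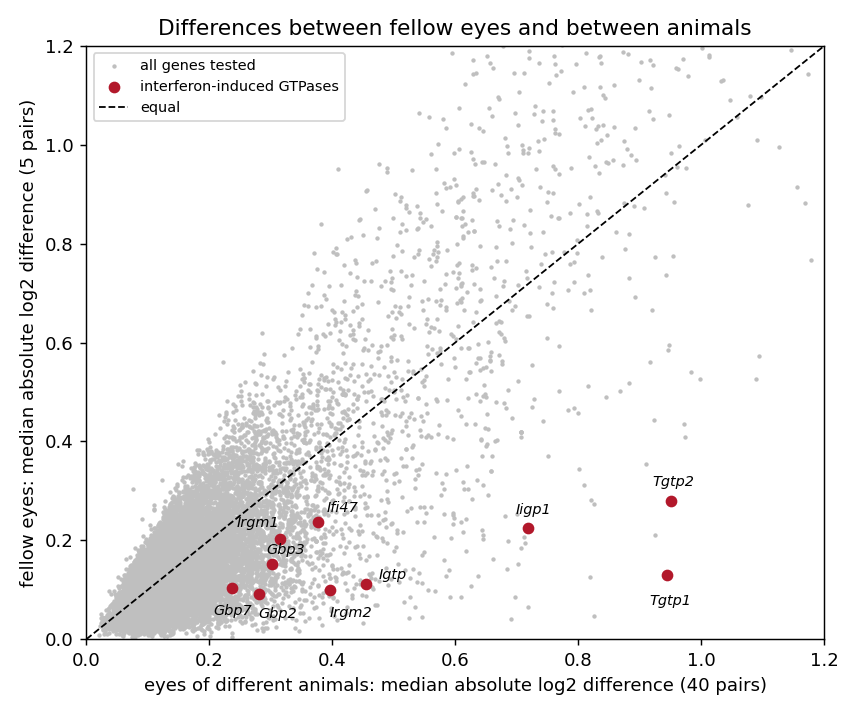
Median absolute log2 difference between fellow eyes (y axis, 5 pairs) against that between eyes of different animals (x axis, 40 pairs), for all genes tested (grey) and the 10 GTPases (red), with a dashed line of equality. All 10 members lie below the line, as do 8635 of the 15414 genes tested, and the members were chosen for such differences. Among the members, Tgtp1 and Tgtp2 lie farthest right, near 0.94 and 0.95, and 135 genes lie beyond the axes.

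In the fit over all genes (limma on log2(CPM + 0.5), with animal and eye side as terms), a moderated F test between animals called 13 genes, or 0.0843%, after Benjamini-Hochberg adjustment, and 7.22% at an unadjusted p under 0.05. The choice of members had used this contrast, so their own results in it are not read. The called genes outside the set were Xist, Ddx3y, Kdm5d, Uty, Eif2s3y, Kdm6a, Eif2s3x, Fmo2, Zbtb16, Fkbp5, Gm1966 and Gm49838, most of them on the X or Y chromosome.

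Sex-linked transcripts split the animals in the same way as the GTPases. The labels give no sex. Xist, the noncoding RNA that coats the inactive X chromosome of female cells, had 729 to 868 CPM in the libraries of animals 61 and 65, against 0.913 to 5.86 CPM in those of animals 64, 66 and 68. The Y-linked genes Ddx3y, Uty, Kdm5d and Eif2s3y had at most 0.0718 CPM in the libraries of animals 61 and 65, against 21.01 to 55.4 CPM in those of the other 3 animals. Both eyes matched in 5 of 5 animals.

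Animals 61 and 65, the pair with high Xist, had the 2 highest animal means in 10 of 10 members. The same order held for 8.87% of all genes tested. In 9 of 10 members all 4 of their libraries lay above the other 6, with Gbp3 as the exception, compared with 0.798% of all genes above and 0.461% below. This division was looked at after the levels of the members had been seen. The members were chosen because animals differed and fellow eyes agreed in them, and Tgtp1 and Tgtp2 are near copies. The counts are thus a description, and nothing is read from their distance to the shares over all genes. With 2 animals against 3, sex-linked expression and anything else that animals 61 and 65 shared, such as cage, litter or day, cannot be told apart, and the part of sex in the result was not tested.

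Within the 3 animals with Y-linked transcripts, the members took no single order by animal mean. Tgtp1, Tgtp2, Igtp, Irgm2 and Gbp2 fell from animal 64 over 66 to 68, and animal 68 was also lowest in Irgm1 and Ifi47. The mean of Tgtp1 was 5.56 CPM in animal 64, 3.42 CPM in animal 66 and 2.42 CPM in animal 68, with no overlap between their eyes. Igtp had 6.41, 6.02 and 5.22 CPM in the same animals and Irgm2 had 12.3, 11.6 and 9.96 CPM, with the eyes of animals 64 and 66 overlapping in both genes. Iigp1 was higher in animal 64, at 6.36 CPM, than in animals 66 and 68, at 4.59 and 4.75 CPM. Gbp3 ran the other way, with 11.1, 13.04 and 15.3 CPM in animals 64, 66 and 68. Irgm1 (13.8, 15.1 and 13.2 CPM) and Gbp7 (19.8, 22.3 and 20.1 CPM) were highest in animal 66. Ifi47 had 3.41, 3.41 and 3.05 CPM, Gbp2 had 12.2, 11.4 and 10.9 CPM, and Tgtp2 had 5.47, 4.39 and 3.60 CPM.

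The 10 genes nearest to the mean profile of the members over the 10 libraries were found by the root mean square distance of centred log2(CPM + 0.5), among 13141 candidates. They were Ddx3x (0.09), Eif2s3x (0.10), Gbp9 (0.11), Kdm6a (0.12), Cybb (0.12), Sult1c1 (0.13), Ighm (0.14), Kdm5c (0.16), Pisd-ps1 (0.16) and Tap1 (0.17), compared with a median distance of 0.37 over all candidates and 0.35 for a flat profile. Ddx3x, an RNA helicase, Eif2s3x, a subunit of translation initiation factor 2, and the histone demethylases Kdm6a and Kdm5c are X-linked genes known in mice to be expressed from both X chromosomes of females. Cybb, the X-linked catalytic subunit of the phagocyte oxidase, Gbp9, a further guanylate-binding protein, and Tap1, a peptide transporter of antigen presentation, are known interferon targets. Ighm encodes an immunoglobulin heavy chain and Sult1c1 a sulfotransferase.

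Levels of these genes show the likeness. Ddx3x had 283, 185, 257, 195 and 164 CPM in right eyes of animals 61, 64, 65, 66 and 68, against 267, 182, 258, 186 and 174 CPM in left eyes. Gbp9 had 14.4, 8.18, 12.9, 9.57 and 8.65 CPM in right eyes, against 12.6, 9.12, 12.5, 9.43 and 8.17 CPM in left eyes. In each of the 10 genes all 4 libraries of animals 61 and 65 lay above the other 6, as the distance measure favours. Among the members, Igtp (0.08) and Irgm2 (0.09) lay nearest to the members' own mean profile, and Tgtp1 (0.40) and Tgtp2 (0.39) lay farthest, with the same order of animals but wider steps.

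**Figure D3:**
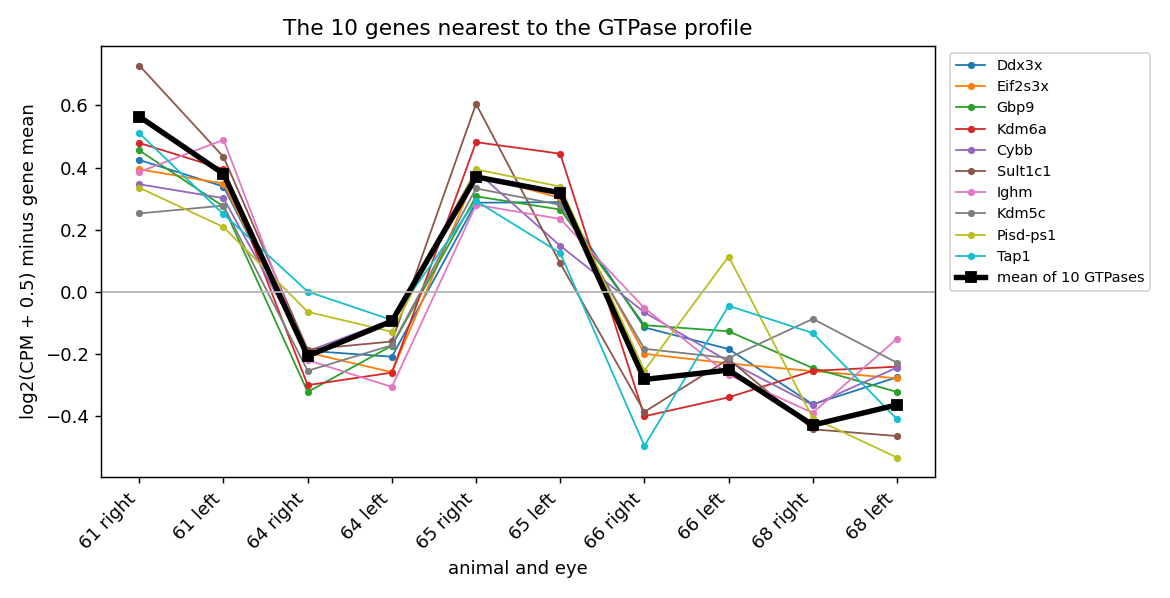
Log2(CPM + 0.5) minus the gene's mean over the libraries (y axis) by animal and eye (x axis) for the mean of the 10 GTPases (black squares) and the 10 nearest genes (coloured lines). The black line reaches 0.56 in the right eye of animal 61 and falls lowest in the right eye of animal 68 (-0.43), and both eyes of animals 61 and 65 are above 0 in every line.

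Right and left eyes did not separate in any member. With all animals, the widest right minus left difference was that of Tgtp2, which averaged 8.07 ± 4.90 CPM in right eyes and 6.96 ± 3.76 CPM in left eyes (SD, n = 5 each). It differed by 0.16 ± 0.14 in log2(CPM + 0.5) (SE; 95% interval -0.17 to 0.49), with the right eye higher in 3 of 5 animals. Without animal 61 it was 0.09, and Ifi47, at -0.21, was the wider. Tgtp1 averaged 6.01 ± 3.22 CPM in right eyes and 5.99 ± 3.46 CPM in left eyes, a difference of 0.05 ± 0.08 (-0.15 to 0.24). For Gbp2, with 12.7 ± 2.46 CPM in right eyes and 13.2 ± 1.71 CPM in left eyes, the difference was -0.07 ± 0.06 (-0.21 to 0.07), and the right eye was higher in 1 of 5 animals.

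The other members differed by less than Tgtp2. On the same log2 scale, right minus left was 0.05 ± 0.08 for Gbp3, 0.02 ± 0.06 for Irgm2, -0.01 ± 0.07 for Igtp, -0.01 ± 0.14 for Iigp1, -0.02 ± 0.09 for Irgm1, -0.04 ± 0.06 for Gbp7 and -0.07 ± 0.13 for Ifi47 (± SE). The signs of several of these differences turn under another scaling or with 1 animal left out, and Tgtp2 and Gbp2 kept theirs in all settings tried. Of the members, 4 of 10 had a positive difference, against 46.2% of all genes. No member was called, and the adjusted p was 0.9997 for each (limma, Benjamini-Hochberg over all genes tested). Of all genes, 0 of 15414 (0.0%) were called, with 424 (2.75%) at an unadjusted p under 0.05, and no member was among those. The 95% intervals of the members reached at most 0.49 above and 0.37 below 0 (log2). If the lens was on different sides in different animals, its effect would appear in this difference in part or not at all.

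**Figure D4:**
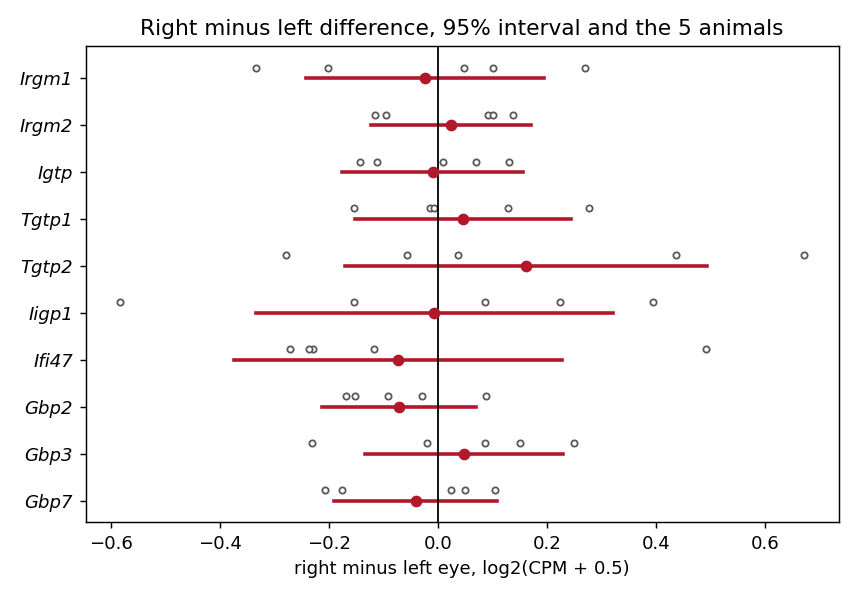
Right minus left difference of each GTPase in log2(CPM + 0.5) (x axis), with the filled point at the limma estimate, the bar its 95% interval and open points the 5 animals. All 10 bars span 0, and Tgtp2 has the highest estimate, at 0.16.

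Related GTPases outside the set showed part of the pattern. The division of animals 61 and 65 from the rest came from the members' levels, so counts by it are a description. The list held 18 further IRG, GBP, Mx and very large interferon-inducible GTPase genes, of which 17 were in the file and 11 passed the filter. The 2 highest means were those of animals 61 and 65 in 9 of the 11, against 8.87% of all genes. In 6 of the 11, against 0.798% of all genes, Gbp4, Gbp5, Gbp6, Gbp9, Gm4951 and Gvin1 (named after their values were seen), all 4 libraries of animals 61 and 65 lay above the other 6. Gvin1, the very large interferon-inducible GTPase with the highest level on the list, had 56.8, 24.2, 55.9, 31.4 and 26.3 CPM in right eyes of animals 61, 64, 65, 66 and 68, against 44.8, 32.9, 54.4, 22.4 and 40.6 CPM in left eyes. In contrast, 9930111J21Rik2 overlapped between animals, with 27.7, 19.9, 24.8, 20.2 and 18.04 CPM in right eyes and 22.7, 20.5, 20.3, 17.7 and 20.4 CPM in left eyes.

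The paralogue Gbp2b beside Gbp2 had at most 0.0692 CPM. The fellow-eye to different-animal ratio had a median of 0.690 over the 11 genes, against 0.923 over all genes. None was called by the adjusted F test, and 5 of 11 were under 0.05 unadjusted, against 7.22% of all genes.

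Upstream of the GTPases, receptors for interferon were present. The 6 genes of the list of 15 ligands and receptors that were in the file were receptor chains. In the F test between animals 0 of 6 was under 0.05 unadjusted, against 7.22% of all genes. None was called, against 0.0843% of all genes, and with 6 genes nothing is read from these counts. Ifnar1, a chain of the type I receptor, had 36.5, 38.5 and 41.2 CPM as the lowest, median and highest right eye, against 38.2, 39.5 and 42.1 CPM in left eyes. Il10rb, a chain of the interferon lambda receptor, ranged from 25.8 to 34.9 CPM in right eyes and from 28.3 to 33.1 CPM in left eyes.

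In the list of JAK kinases, STAT and IRF factors and SOCS inhibitors, 6 of 14 genes tested were under 0.05 unadjusted, against 7.22% of all genes, and none was called. Animals 61 and 65 had the 2 highest means in 5 of 14, against 8.87% of all genes. The 2 most abundant of the list, the kinase Jak1 and the transcription factor Stat3, overlapped between animals, with 54.3 to 65.4 and 45.3 to 56.9 CPM in right eyes and 57.9 to 63.8 and 45.1 to 60.2 CPM in left eyes.

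Other interferon-stimulated genes followed the order of the animals in part. Of 29 antiviral genes tested, 6 were under 0.05 unadjusted (7.22% of all genes), 0 was called, and in 0 did all 4 libraries of animals 61 and 65 lie above the other 6, against 0.798% of all genes. Animals 61 and 65 had the 2 highest means in 11 of the 29, against 8.87% of all genes. Ifit3, which binds foreign RNA together with its family members, ranged from 43.9 to 59.6 CPM in right eyes and from 47.9 to 58.5 CPM in left eyes. Samd9l, an antiviral factor, ranged from 27.5 to 42.1 CPM in right eyes and from 31.4 to 40.2 CPM in left eyes. The ratio of fellow-eye to different-animal differences had a median of 0.738 over the 29 genes and 0.923 over all genes. The ISRE core was found in 15 of 26 of the antiviral genes with a promoter window, and a GAS within 10 bases of it in 2 of 26.

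Of 13 genes of MHC class I, the immunoproteasome and peptide loading, 5 were under 0.05 unadjusted, against 7.22% of all genes, and 0 was called. The 2 highest means were those of animals 61 and 65 in 6 of the 13, against 8.87% of all genes. In 2 of the 13, against 0.798% of all genes, Tap1 and Nlrc5 (an activator of MHC class I genes, named after its values were seen), all 4 libraries of animals 61 and 65 lay above the other 6. Nlrc5 had 7.24, 4.48, 5.96, 2.70 and 2.72 CPM in right eyes of animals 61, 64, 65, 66 and 68, against 6.41, 4.41, 5.95, 2.94 and 3.27 CPM in left eyes. B2m, the light chain of MHC class I, had 114 to 207 CPM in right eyes and 127 to 160 CPM in left eyes, with the animals overlapping.

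Interferon-gamma targets outside the GTPases varied between animals, mostly without animals 61 and 65 on top. Of 16 genes 10 passed the filter, 6 of them were under 0.05 unadjusted, against 7.22% of all genes, and 0 was called. The 2 highest means were those of animals 61 and 65 in 1 of the 10, against 8.87% of all genes. In 0 of the 10 did all 4 of their libraries lie above the other 6, against 0.798% of all genes. The median ratio of fellow-eye to different-animal differences was 0.461, against 0.923 over all genes. Cd74, the invariant chain of MHC class II, had 47.2, 48.8, 48.6, 22.2 and 24.5 CPM in right eyes of animals 61, 64, 65, 66 and 68, against 47.7, 59.8, 35.9, 30.4 and 25.1 CPM in left eyes. Animal 64 was thus among the highest, with animals 66 and 68 low. Serping1, a complement inhibitor, had 76.4 to 110 CPM in right eyes and 80.2 to 107 CPM in left eyes. The interferon-gamma-induced chemokine genes Cxcl9, Cxcl10 and Cxcl11 did not pass the filter.

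Autophagy conjugation genes, which in mice are needed for IRG proteins to reach the right membrane, had counts near the background. Of 11 tested, 1 was under 0.05 unadjusted, against 7.22% of all genes, 0 was called, and in 0 were all 4 libraries of animals 61 and 65 above the other 6, against 0.798% of all genes. Gabarap, an ubiquitin-like protein of the autophagosome membrane, ranged from 67.0 to 82.8 CPM in right eyes and from 64.1 to 74.9 CPM in left eyes. Sqstm1, an autophagy receptor, ranged from 119 to 157 CPM in right eyes and from 114 to 167 CPM in left eyes.

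Summed markers of macrophages overlapped between the animals. The 13 macrophage markers summed to 304 CPM in both eyes of animal 61 and to 305 and 261 CPM in the right and left eye of animal 65, against 256 to 301 CPM over the libraries of animals 64, 66 and 68. Of the 13, 3 were under 0.05 unadjusted between animals, against 7.22% of all genes, and in 0 did all 4 libraries of animals 61 and 65 lie above the other 6, against 0.798% of all genes. Only 1 of the 13 markers of T and NK cells passed the filter. Markers of T and NK cells, which are sources of interferon gamma, summed to 2.03 to 3.38 CPM, and 12 of the 13 were under 0.5 CPM in every library. Cd3d, a part of the T cell receptor complex, was listed at 0 in 5 of the 10 libraries. Most of that sum was Cd4, which macrophages can also express, at 1.27 to 2.31 CPM in right eyes and 1.30 to 1.96 CPM in left eyes. Neutrophil markers summed to 0.839 to 2.75 CPM, and 0 of 5 in the file passed the filter. The part of these cells in the differences between animals was not tested beyond these values.

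**Figure D5:**
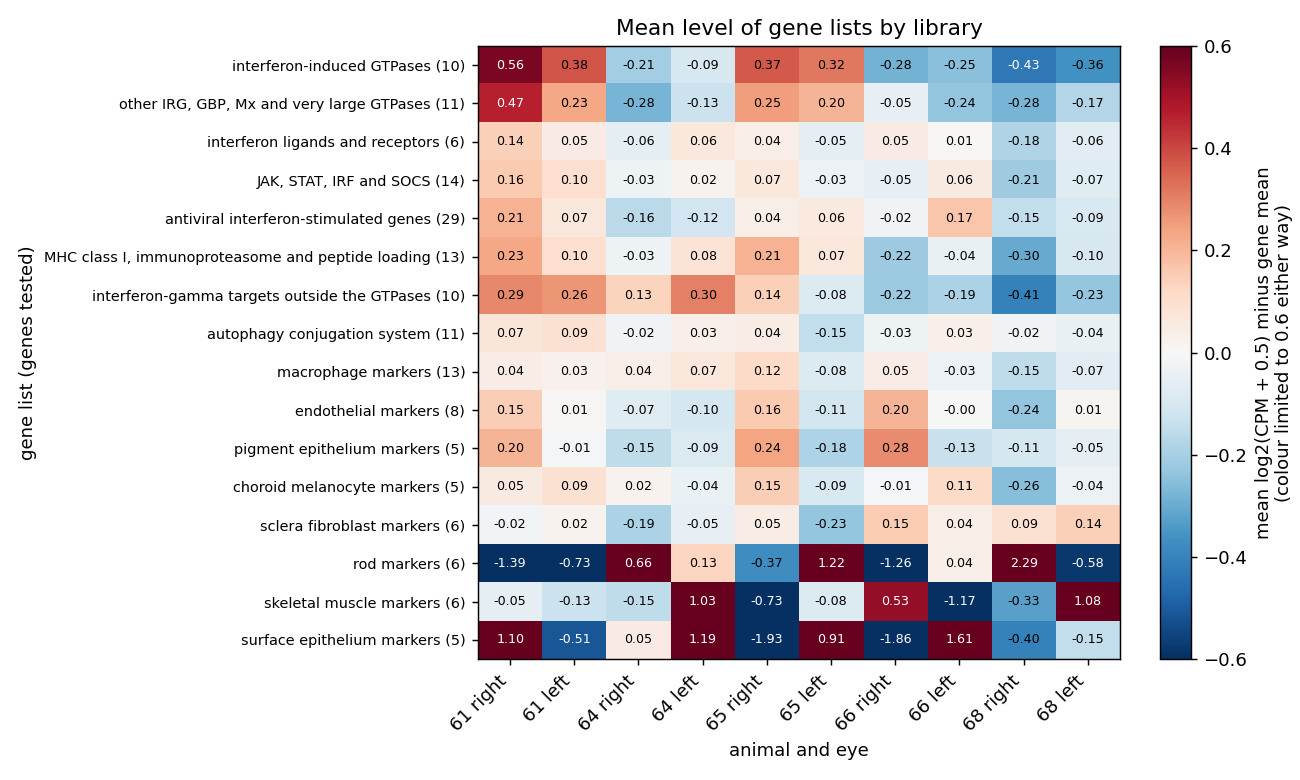
Mean log2(CPM + 0.5) minus the gene's mean for each list (rows, with the number of genes tested) in each library (columns, by animal and eye), with colour limited to 0.6 in either direction and values printed in the cells. The top row, the 10 GTPases, is positive in animals 61 and 65 only, between 0.32 and 0.56, and negative in the other 3 animals. The macrophage row stays between -0.15 and 0.12, and the rod, muscle and surface epithelium rows vary between fellow eyes.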

How the data were processed

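Deposited values were CPM, that is, counts the authors scaled to library totals, with 0.0001 added to every value, and this offset was taken off first. STAR, Partek and GRCm38 (mm10) appear in the submitters' processing notes. Tool versions, the annotation release and the treatment of strand were not given in the sources used here. Total RNA was depleted of ribosomal RNA and made into stranded libraries, per the labels' protocols. In each library 88.9% to 89.9% of low values were whole multiples of 1 step (tolerance 0.05), and that step gave the implied depth. A floor of 3 reads allows for counting error alone.

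Genes averaging 1 CPM or more entered limma 3.58.1 (R 4.3.3) on log2(CPM + 0.5), a scale that understates changes of low genes, with eye side and animal as terms, an intensity trend and Benjamini-Hochberg adjustment at 0.05, two-sided. The fit was tried on simulated counts that lacked the tissue differences between fellow eyes, and nothing is read from them here. Differences of 5 fellow-eye pairs and 40 pairs of different animals were described only. With 1 library per eye, p-values of both comparisons are set against the scatter within fellow pairs, after animal and side are fitted. That scatter does not hold the spread between animals.

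Animal served as the pairing block, since treated and contralateral eyes are compared in the protocol and titles share a number. Deviations of fellow eyes correlated by 0.276, 0.106, 0.0402, -0.196 and -0.0541 in animals 61, 64, 65, 66 and 68 (over 15414 genes). The value exceeded 0.1 in 2 of 5 animals. Sex-linked transcripts matched within all 5 animals, which does not tell apart animals with the same sex-linked pattern.

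Members, lists and tests were chosen with earlier results of these data known. Named were all members, the 2 most abundant measured genes of a list, list genes passing a test, and the 10 nearest genes without predicted loci. The results of 2 genes are not reported here. Other names are marked as chosen after their values were seen. Coordinates are 1-based, with ends as the deposited stop minus 1. By name and chromosome 25686 genes matched GENCODE M21, which supplied exon lengths and transcript sequences, and 99.4% of their starts were equal. Promoter sequences are from RefSeq (GRCm38.p6). Alternatives covered pseudocount, filter, scaling, weights, moderation, model terms and each animal or library left out. The counts over animals 61 and 65 under these alternatives were added after the data were seen. Python 3.11.15 and matplotlib 3.10.9 drew the figures.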

Additional observations from a re-analysis of the deposited data

Results flagged for a closer look

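Among 108 sets of 5 libraries of 1 side examined for a library far from the rest, 4 were picked out because its gap to the nearest other exceeded 0.71 of the range, and chance alone gives about 1 in 20. None was a GTPase of the set. Gnat1, the rod transducin, had 292 CPM in the right eye of animal 68 and 128 CPM in the left eye of animal 65, each above the other eyes of that side. Ttn, which encodes the muscle protein titin, had 5147 CPM in the right eye of animal 66, and S100a9, a neutrophil gene, had 0.554 CPM in the left eye of animal 64.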

How the results depend on the processing

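The count of genes called between eye sides stayed 0 in all 26 alternatives, including the fit with no replicate block (0), which ignores the pairing of eyes by animal. No member had an adjusted p below 0.941 in that comparison in any setting. The count called between animals, 13 in the reported fit, was 20 with array weights, 25 with no eye side term, 7 with no intensity trend, and 5 to 10 with an animal or library left out. It was 5 without animal 61 or either of its libraries, and 6 to 8 without animal 64 or 68, without either library of animals 64, 66 or 68, or without the right library of animal 65. Those fits have fewer libraries, and the cause of the changed counts was not tested for any setting. The median fellow-eye to different-animal ratio of the members, 0.321 as reported, was 0.273 to 0.443 with an animal or library left out, highest without animal 65, and 0.303 to 0.341 under the other alternatives. Right minus left differences that changed sign were those of Igtp (0.0046) and Iigp1 (0.0068) with median-of-ratios scaling, Igtp (0.014) and Iigp1 (0.017) with quantile normalization, and Irgm1 (0.031), Iigp1 (0.0713) and Ifi47 (0.0517) with array weights. With an animal or library left out they ranged from -0.0114 to 0.0959 for Tgtp1, -0.0969 to 0.0542 for Irgm1, -0.0043 to 0.0588 for Irgm2, -0.044 to 0.0244 for Igtp, -0.107 to 0.138 for Iigp1, -0.0033 to 0.117 for Gbp3, -0.0773 to 0.00056 for Gbp7, 0.0342 to 0.272 for Tgtp2, -0.214 to -0.0231 for Ifi47 and -0.11 to -0.0462 for Gbp2. The cause of these changes was not tested. The Igtp ratio, 0.247 as reported, was 0.101 when listed genes were scaled to 1 total. The count of members with all libraries of animals 61 and 65 above the others was 8 to 10, and that of the 11 other GTPases 4 to 9, over the settings tried, with 8 and 4 where the filter at a mean of 5 CPM left fewer genes. Depth did not limit the members, whose lowest value was 2.14 CPM.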

Other observations

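Outside the interferon genes, the transcripts called between animals by limma's F test (Benjamini-Hochberg adjustment, with 13 genes called) included Fkbp5 and Zbtb16, both known as targets of the glucocorticoid receptor. Animal means of Zbtb16 were 17.2, 31.4, 30.3, 19.6 and 51.7 CPM in animals 61, 64, 65, 66 and 68, and those of Fkbp5 were 18.8, 27.8, 19.4, 15.9 and 40.1 CPM. Both were highest in animal 68, the animal lowest in Tgtp1, Tgtp2, Igtp, Irgm1, Irgm2, Gbp2 and Ifi47. Fmo2, a monooxygenase, was highest in animal 61 at 92.9 CPM, against 35.8 to 49.9 CPM in the other animals. These genes were picked for passing the test, and a relation to the GTPases was not tested over 5 animals.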
